A study of Mus musculus with 16 samples.

Results

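Accessibility at 7 genes of ketone body and fatty acid metabolism was examined across mouse tissues: Acat1, Bdh1 and Oxct1, which encode enzymes that make or use ketone bodies, the carnitine palmitoyltransferase genes Cpt1a, Cpt1b and Cpt2, and Fgf21, which encodes a hormone of the fasted state. They were chosen by name, as 7 of the 21938 protein-coding genes of the GENCODE mouse annotation (release 21, GRCm38). The data are ATAC-seq peak lists, in which the Tn5 transposase marks open DNA, from kidney, lung, heart, spleen, muscle, liver and the white and brown adipose depots of male C57BL/6 mice, 12 weeks old when purchased. Fed mice had free access to chow, and fasting mice went without food for 24 h. Each of the 16 libraries, 1 for each tissue and state, was made from the pooled tissue of 3 mice. There are no replicates, so a difference between the libraries of a tissue has no test, and because all tissues of a state were taken from the same mice, p-values over tissues speak of these pools only.

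In fasting, adipose tissue releases fatty acids that liver, muscle and heart burn in mitochondria. CPT1, made as a liver form (Cpt1a) and a muscle form (Cpt1b), joins long-chain fatty acids to carnitine at the outer mitochondrial membrane, and CPT2 reverses the reaction inside. Liver turns the resulting acetyl-CoA into ketone bodies that other tissues consume: BDH1 interconverts acetoacetate and beta-hydroxybutyrate, OXCT1 activates acetoacetate in consuming tissues and is known to be scarce in hepatocytes, and ACAT1 is the mitochondrial thiolase at the acetyl-CoA end of the pathway. FGF21 is released by liver in fasting and acts through FGF receptors with the co-receptor beta-Klotho.

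The sequences of 4 stretches on which the results below turn are shown here, from RefSeq, 5′ to 3′. The promoter of Fgf21 lies at chr7:45615461-45615740 on the minus strand, 250 bases before to 30 bases after its start, in the region with the largest ratio between the liver libraries among those of the 7 genes, and its capitals mark a match to TGATGCAA on the reverse strand, at bases -139 to -132 from the start. The Bdh1 promoters are shown because liver and the other tissues differed in which of them carried the stronger peak. They lie on the plus strand at chr16:31422047-31422326 (upstream start) and chr16:31428503-31428782 (internal start), with no capitals because none of the letters searched was found. The last stretch, chr19:3319455-3319754 on the plus strand, is centred on a peak upstream of Cpt1a that was listed in the fasting liver library and in no other, and its capitals mark matches to TNAAGGTCA (positions 75 to 83 from the summit) and to CCAAT on the reverse strand (-70 to -66 and -37 to -33). Promoters of Cpt1a, Cpt2 and Oxct1 were also in the table, build GRCm38.p6. Those of Acat1 and Cpt1b were not in it.
Fgf21 promoter: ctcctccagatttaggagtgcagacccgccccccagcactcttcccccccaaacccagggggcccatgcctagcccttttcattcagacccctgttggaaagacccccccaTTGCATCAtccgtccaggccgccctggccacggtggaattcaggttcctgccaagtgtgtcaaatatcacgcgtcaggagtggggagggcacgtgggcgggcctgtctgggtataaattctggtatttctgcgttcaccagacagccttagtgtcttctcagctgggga
Bdh1 upstream start: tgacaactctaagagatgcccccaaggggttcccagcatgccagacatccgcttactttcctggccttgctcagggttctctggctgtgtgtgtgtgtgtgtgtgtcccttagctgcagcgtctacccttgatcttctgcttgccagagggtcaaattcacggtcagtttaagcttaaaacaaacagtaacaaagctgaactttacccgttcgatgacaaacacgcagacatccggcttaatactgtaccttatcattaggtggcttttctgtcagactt
Bdh1 internal start: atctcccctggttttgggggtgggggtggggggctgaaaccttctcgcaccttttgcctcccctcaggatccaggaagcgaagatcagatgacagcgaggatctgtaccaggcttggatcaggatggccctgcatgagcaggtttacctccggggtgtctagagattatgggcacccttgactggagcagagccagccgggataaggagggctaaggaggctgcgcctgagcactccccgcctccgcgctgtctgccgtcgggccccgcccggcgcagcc
Cpt1a fasting liver region: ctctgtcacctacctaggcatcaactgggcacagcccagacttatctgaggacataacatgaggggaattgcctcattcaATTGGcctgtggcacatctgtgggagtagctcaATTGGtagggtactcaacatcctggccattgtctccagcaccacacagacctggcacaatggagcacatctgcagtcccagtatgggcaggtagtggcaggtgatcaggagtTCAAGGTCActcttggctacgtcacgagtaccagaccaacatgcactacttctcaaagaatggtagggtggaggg

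The libraries were first checked against their labels. Each list held close to 300000 rows, between 298996 and 299529. The background, which is the number of tags (read ends) that the peak caller most often expected at a summit, ranged from 2.8 tags in fed liver to 12.77 in fed brown adipose. Of 8 lists of 5 tissue markers each, 7 had their highest mean promoter rank in their own tissue, while the white adipose list stood at 93.2 in brown and 91.3 in white adipose. Genes of the epididymis, the organ beside the gonadal fat pad, averaged 75.05 in fed and 34.4 in fasting white adipose, with a peak at 5 and 3 of 5 genes, and other marker lists also differed between the states of a tissue that is not their own. The spleen list averaged 81.3 in fed and 56.5 in fasting lung, the muscle list 74.3 and 58.4 and the lung list 17.03 and 36.2 in brown adipose, the lung list 47.6 and 31.6 in heart, and the kidney list 33.5 and 16.2 in white adipose and 49.7 and 33.8 in liver. Smaller differences included the lung list at 53.1 fed and 65.8 fasting in liver, the muscle list at 57.1 and 43.1 in spleen and the white adipose list at 47.4 and 33.6 in muscle. In its own tissue the heart list averaged 70.5 fed and 57.3 fasting. The part of these lists in any difference between states was not tested.

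The promoter rank of a gene is the percentile, within its library's list, of the peak of smallest p with a summit within 3 kb of an annotated start, and 0 stands for no peak. Such a peak was present in all 16 libraries for 6 members, as for 61.4% of protein-coding genes, and in 11 libraries for Cpt1b. Cpt2 held the highest ranks, from 97.1 in fed spleen to 99.6 in fasting muscle, with a median of 98.6. Acat1 ranged from 93.5 to 98.99 (median 97.0), Oxct1 from 76.6 to 99.3 (median 97.0), Cpt1a from 91.4 to 98.5 (median 94.6) and Bdh1 from 74.9 to 94.8 (median 90.6). Fgf21 ranged from 28.7 to 89.2 (median 64.0), below the median of 94.8 over all genes and libraries with a promoter peak. Cpt1b ranged from 0 to 95.8.

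**Figure D1:**
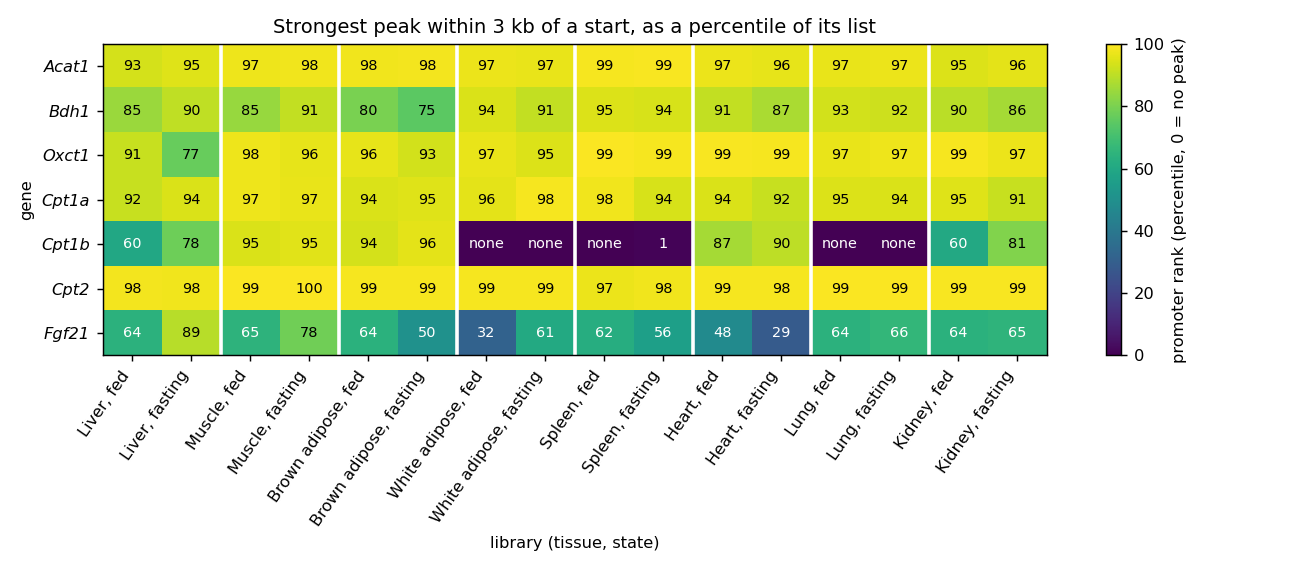
Promoter rank (colour and number, percentile within the library's peak list, with none for no peak) of each gene (rows) in each of the 16 libraries (columns, tissue and state). Cpt2 stays between 97.1 and 99.6, Cpt1b has no peak in white adipose, lung and fed spleen, and Fgf21 has its highest rank, 89.2, in fasting liver.

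Whether a gene's rank followed the tissue was asked by comparing the mean absolute difference between the fed and fasting libraries of a tissue with that over every possible pairing of fed with fasting libraries (exact permutation test, one-sided, Benjamini-Hochberg adjusted over 18883 genes). At an adjusted p under 0.05, 4 of the 7 members followed the tissue, against 51.2% of all genes, and at an unadjusted p under 0.05 it was 5 of 7 against 62.5%. The difference within tissues was 5.77 points for Cpt1b against 45.2 over all pairings (exact adjusted p = 0.00859). It was 0.663 against 1.59 for Acat1 (exact adjusted p = 0.00952), 0.254 against 0.699 for Cpt2 (exact adjusted p = 0.0106) and 3.10 against 4.65 for Oxct1 (exact adjusted p = 0.0202). With fold enrichment as the ranking value, Acat1 and Cpt2 passed no more (exact adjusted p = 0.0546 and 0.0601) and Bdh1 did (exact adjusted p = 0.0210). Oxct1 did not pass without the liver libraries (exact adjusted p = 0.0807). Bdh1 (3.51 against 5.87, exact adjusted p = 0.0658), Fgf21 (13.6 against 15.9, exact adjusted p = 0.209) and Cpt1a (2.16 against 2.30, exact adjusted p = 0.417) did not pass, though Fgf21 did without the white adipose libraries (exact adjusted p = 0.0476).

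Fasting and fed ranks were compared over the 8 tissues with an exact sign-flip permutation test, two-sided, whose smallest p is 0.0078125. No member, and 0 of the 18883 genes, passed after adjustment, the smallest adjusted p of this exact test being 0.786. Unadjusted, Cpt1b was higher in fasting in 6 tissues, with 2 at 0 in both states, by a mean of 5.77 points (SD 8.48, n = 8, exact p = 0.0313), and 1.83% of all genes were higher at an unadjusted p under 0.05. Oxct1 was lower in fasting in 7 of 8 tissues, by a mean difference of -2.93 points (SD 4.93, n = 8, exact p = 0.0234), against 3.65% of genes lower. Ranked by fold enrichment the exact p for Oxct1 was 0.328, and without the liver libraries its mean difference was -1.24. For Cpt1b the exact p was 0.0625 with windows of 1 kb or 500 bp, because the single spleen peak then falls out.

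Within a tissue, a shift of at least 10 points was used as a fixed rule of size. In liver 2 members moved up, Cpt1b and Fgf21, against 10.3% of genes, and Oxct1 moved down, against 15%. In muscle Fgf21 moved up (4.5% of genes) and no member moved down (7.19%). In white adipose Fgf21 moved up (8.47%) and none down (10.3%). Kidney had 1 member higher, Cpt1b (4.94%), and none lower (4.53%). Fgf21 moved down in brown adipose (8.18%) and in heart (10.7%), where no member moved up (7.42% and 8.92%). No member moved in spleen (8.61% of genes up, 10.5% down) or lung (4.69% up, 7.35% down).

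Ranks near the top of a list hide differences in signal, so the tags at each summit were solved from the deposited fold and p and divided by the library's background. This measure depends on how strongly a library is enriched: over the strongest promoter peak of each gene, the median ratio of fasting to fed was 1.78 in liver, 0.548 and 0.771 in the brown and white adipose depots, 0.833 in heart, and between 0.955 and 1.07 in the other 4 tissues. Overlapping peaks of the 16 lists were merged into regions, which are named by the position of their strongest summit relative to the annotated 5′ end of the gene. A single-tissue region is one listed in both libraries of a tissue and in no other library. Each ratio below is therefore also given relative to its tissue's median. Where a count of promoters with a larger ratio follows, those promoters are taken at each gene's strongest peak in each state. For a region named after its values were seen, such a count sets unlike measures side by side. It does not show how rare that region's ratio is. Intervals are exact 95% limits on the tag counts; they cover counting error only, since read ends of a fragment are not independent.

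**Figure D2:**
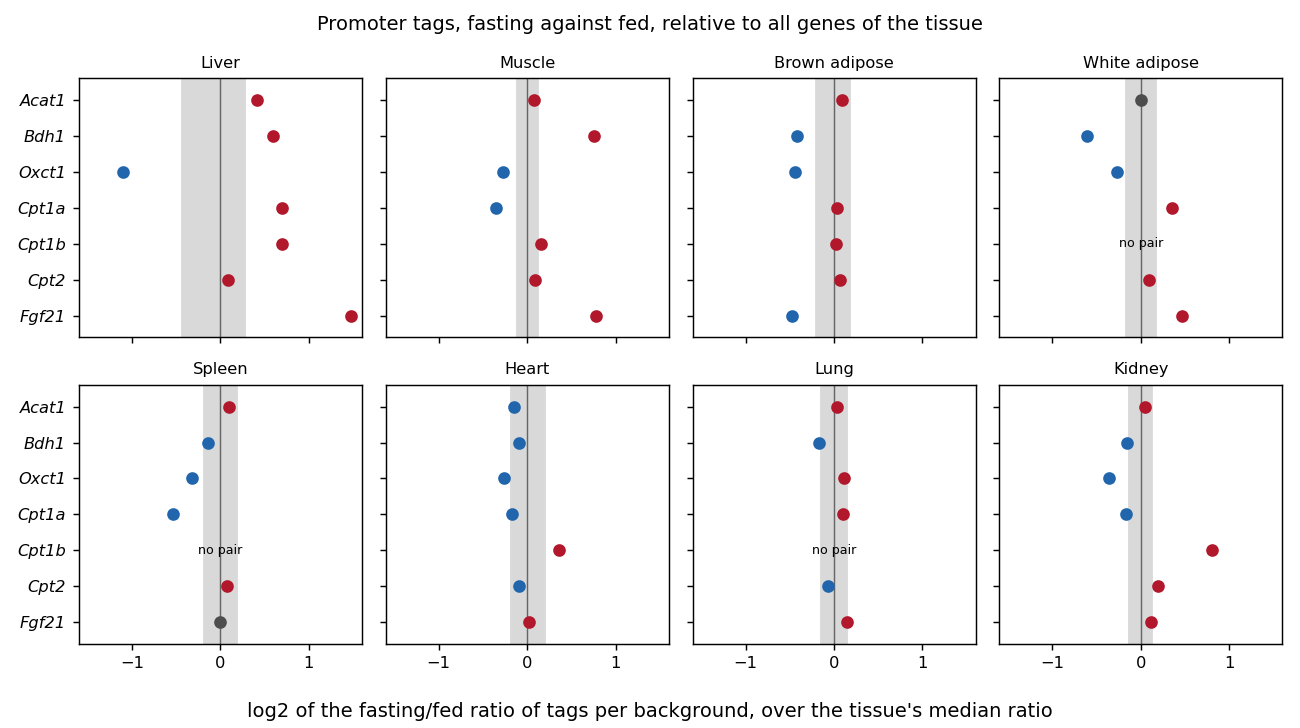
Ratio of fasting to fed tags per background at the strongest promoter peak of each gene, divided by the median ratio of all genes in that tissue, on a log2 scale (x axis), 1 panel per tissue. The strongest peak is taken in each state separately, so a point can compare different regions, as for Fgf21 in liver and Cpt1a in muscle. The grey band is the interquartile range of all genes, and points right of the line are higher in fasting than the typical promoter; Fgf21, Cpt1a, Cpt1b, Bdh1 and Acat1 lie right of the band in liver and Oxct1 lies left of it.

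Acat1, the thiolase gene, lies on the minus strand of chromosome 9 (53580522 to 53610382) and had a peak at its start in every library. Fed and fasting liver held 17.9 and 42.6 tags per background there, muscle 45.9 and 47.8, brown adipose 54.1 and 31.5, and kidney 50.5 and 50.4. Relative to the tissue medians these were ratios of 1.34 in liver (0.953 to 1.90), 1.06 in muscle, 1.06 in brown adipose and 1.03 in kidney. The liver ratio was exceeded by 2267 of 16113 liver promoters, and the intervals of all 4 include 1. An intronic region 8618 bp into the gene was the strongest beyond 3 kb of a start. It ranked 94.4 and 96.9 in fed and fasting liver and 90.9 and 94.8 in brown adipose, and it was not listed in spleen or lung. Its ratio relative to the median was 1.78 in white adipose (1.20 to 2.63), with a rank of 57.2 fed and 80.1 fasting. In kidney it was 1.59 (1.11 to 2.29), with a rank of 25.1 fed and 67.9 fasting. Liver was at 1.47 (1.07 to 2.04) and brown adipose at 1.26 (1.03 to 1.53). Muscle, at 1.18 (0.895 to 1.57), and heart, at 0.888 (0.552 to 1.42), had intervals that include 1. Other regions of the locus were lower in fasting kidney. They stood at 0.437 (0.280 to 0.669), 0.466 (0.329 to 0.651) and 0.653 (0.498 to 0.852) times the kidney median. A further intronic region at 6220 bp was listed in liver alone, with ranks of 89.7 and 85.4 and 45 and 85 tags, 1.05 times the tissue median (0.724 to 1.54).

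Bdh1, on the plus strand of chromosome 16 (31422280 to 31458901), had different leading starts in different tissues. At the upstream start (region at -121 bp) a peak was listed in 5 libraries. Liver ranked 85.0 fed and 90.4 fasting, kidney 69.5 and 70.4, and fasting spleen 54.4. At the internal start, 6474 bp downstream, a peak was listed in all 16, with ranks from 12.02 (fed liver) and 43.6 (fasting liver) up to 94.8 (fed spleen). In liver the upstream start held 12.9 tags per background fed and 34.8 fasting, and the internal start 5.71 and 9.22. Kidney, the other tissue with peaks at both starts in both states, had the reverse order, with 19.3 and 17.9 at the upstream start and 44.3 and 38.4 at the internal start. The region of the internal start also overlaps an exon of Gm15743.

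Between fasting and fed, the upstream Bdh1 start in liver had a ratio of 2.70, which is 1.51 times the tissue median (1.02 to 2.29). A region at -2643 bp went from 20 to 93 tags and from a rank of 54.0 to 89.2 in liver, 2.59 times the tissue median (1.58 to 4.43), a ratio that 8 of the 16113 liver promoters exceeded. In kidney the same region held 77 and 69 tags. The strongest region beyond 3 kb of a start, at -9813 bp, ranked 89.9 and 95.5 in liver, where its ratio was 1.70 times the median (1.16 to 2.54). The internal start was higher in fasting muscle (108 and 297 tags, 1.69 times the median, 1.35 to 2.13) and lower in fasting white adipose (25.5 and 12.9 tags per background, 0.657 times the median, 0.502 to 0.852), beside the epididymis values given above. A kidney region at 33229 bp was the strongest single-tissue region, with ranks of 78.6 and 80.7.

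Oxct1, the gene of the enzyme that lets tissues use ketone bodies, spans chromosome 15 from 4026383 to 4155344 on the plus strand, and its start region was lowest in liver. Fed liver held 13.2 tags per background and fasting liver 10.99. Kidney held 93.1 and 70.04, spleen 66.9 and 51.0, muscle 58.8 and 47.8, brown adipose 50.1 and 20.3, lung 41.4 and 47.6, white adipose 34.9 and 22.3, and heart 28.5 and 19.7. No other library came below 19.7. Ranks showed the same place for liver, 91.4 fed and 76.6 fasting, while the 14 other libraries lay between 93.0 and 99.3.

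At the Oxct1 start, fasting values relative to the tissue median were under 1 in 7 of 8 tissues. They were 0.466 in liver (0.280 to 0.772), 0.738 in brown adipose (0.609 to 0.889), 0.776 in kidney (0.670 to 0.898), 0.799 in spleen (0.650 to 0.982), 0.825 in muscle (0.721 to 0.946), 0.829 in white adipose (0.673 to 1.02) and 0.831 in heart (0.644 to 1.07). Lung was the exception, at 1.08 (0.930 to 1.26), beside the shift of the spleen markers in lung given above. In liver, 918 of 16113 promoters had a smaller ratio. In the extended gene body, 3 regions had a peak in each liver library, against 4 fed and 7 fasting in brown adipose, 8 and 6 in lung, 12 and 5 in white adipose, 15 and 15 in kidney, 22 and 16 in muscle, 24 and 26 in spleen and 41 and 29 in heart. These counts include weak peaks, and no such counts over all genes stand beside them. Of the 99 regions, 56 were listed in 1 library only. Heart had the lowest shares of list rows with q under 0.01, 69.9% fed and 74.1% fasting. The strongest region beyond 3 kb, at 128482 bp near the end of the gene, was at 146 tags in fed and 121 in fasting muscle, with 18 in fasting heart and no peak elsewhere. Its muscle ratio was 0.509 times the median (0.397 to 0.652). Another region of the locus went the other way in muscle, from 37 to 159 tags and from a rank of 59.6 to 85.3. That was 2.64 times the median (1.84 to 3.89). A region at 43281 bp was listed in heart alone, with 44 tags fed and 23 fasting.

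Cpt1a, the liver form of CPT1, lies on the plus strand of chromosome 19 from 3322334 to 3385733 and had open start regions in every library. A region at 972 bp, at the start for which RefSeq gives a promoter, gave the strongest promoter peak in 15 of 16 libraries, with ranks between 91.4 and 98.5. It held 65 tags (23.2 per background) in the fed and 190 (67.4) in the fasting library of liver, 1.63 times the tissue median (1.22 to 2.19). In fasting spleen it was at 0.689 times the median (0.537 to 0.881), with 164 tags fed and 113 fasting, and in white adipose at 1.28 (1.08 to 1.51). The region at the annotated 5′ end (139 bp) was weaker, with ranks between 33.8 and 86.7.

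Upstream of Cpt1a, at -2729 bp, fasting liver had a peak of 112 tags (39.7 per background, rank 85.8), and the other 15 lists had none there. Fed liver has no value at this position, because the lists name peaks only. Inside the gene, an intronic region at 11148 bp went from 125 to 457 tags in muscle, 2.25 times the tissue median (1.84 to 2.76), which 49 of 15284 muscle promoters exceeded. Its rank was 87.8 fed and 96.6 fasting, and in fasting muscle it was the strongest promoter peak of the gene. The same region was at 1.79 times the median in liver (1.26 to 2.58) and 1.83 in white adipose (1.32 to 2.53), and at 0.905 in kidney (0.732 to 1.12). The number of regions with a peak in the extended gene was 19 in fed and 43 in fasting liver. Over the 7 loci, Cpt1a included, it was 71 and 109, and no such count over all genes is given. Of the 74 Cpt1a regions, 34 were listed in 1 library only. The strongest region beyond 3 kb of a Cpt1a start, ranked up to 98.9, lies at a start of the neighbouring gene Tesmin.

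**Figure D3:**
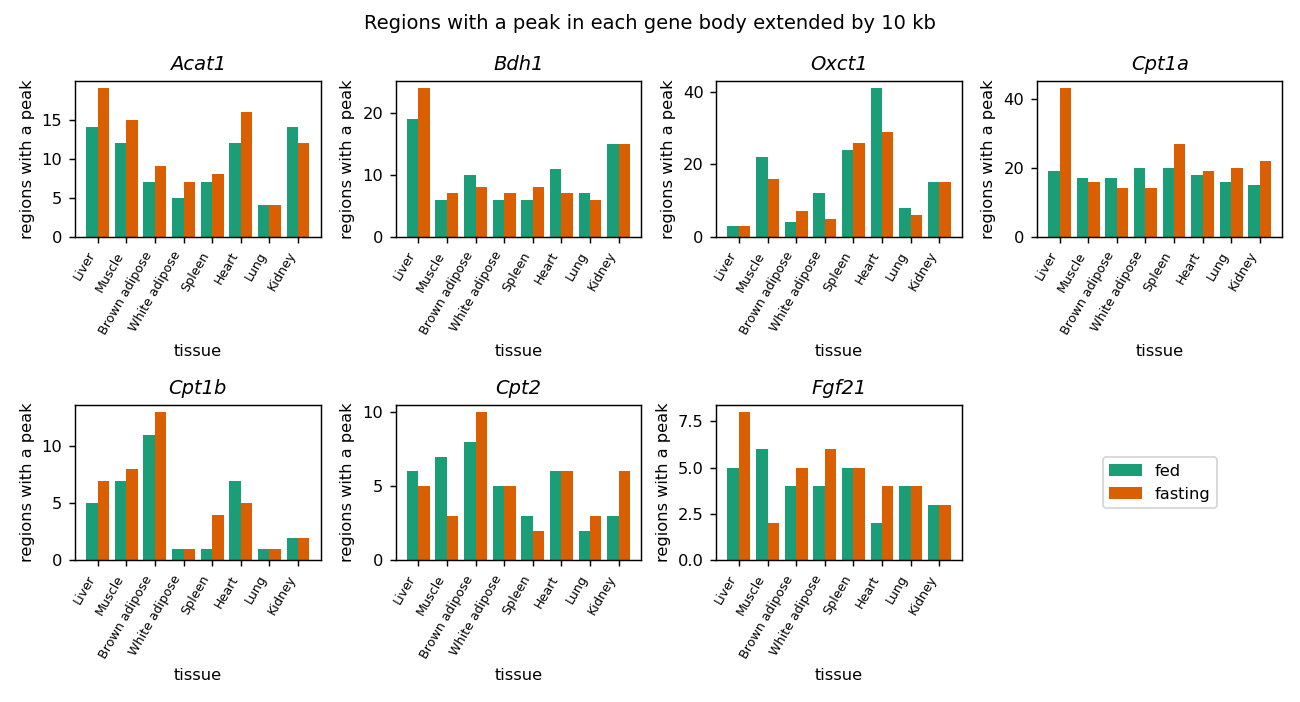
Number of regions with a peak in each gene body extended by 10 kb (y axis) in fed (green) and fasting (orange) libraries of the 8 tissues (x axis). Cpt1a goes from 19 to 43 regions in liver, and Oxct1 has 3 in each liver library and 41 and 29 in heart. The counts include weak peaks, and no such counts over all genes stand beside them.

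Cpt1b, the muscle form, lies on the minus strand of chromosome 15 (89416405 to 89425863). Its start region, 2 bp from the annotated 5′ end, had a listed peak in both libraries of 5 tissues. Brown adipose held 77.8 tags per background fed and 43.2 fasting, muscle 50.5 and 55.6, kidney 18.8 and 31.9, heart 14.4 and 15.4 and liver 8.21 and 23.8. No peak at this start was listed in white adipose, spleen or lung. Its fed and fasting ranks were 94.5 and 95.5 (muscle), 93.7 and 95.8 (brown adipose) and 86.6 and 90.03 (heart). Those of liver and kidney lay between 60.02 and 80.9.

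Relative to the tissue medians the Cpt1b start was higher in fasting kidney, at 88 tags fed and 148 fasting (1.75 times the median, 1.33 to 2.30), which 67 of 15990 kidney promoters exceeded. In liver, 23 tags fed and 67 fasting gave 1.62 times the median (0.996 to 2.73). Muscle (1.12, 0.973 to 1.28), brown adipose (1.01, 0.886 to 1.16) and heart (1.28, 0.929 to 1.78) had intervals that include 1. A region at 10385 bp, past the end of the gene, was listed in liver, muscle, brown adipose and heart, with ranks of 92.3 in fed muscle and 91.8 in fed heart. Brown adipose alone had an intronic region at 7168 bp, with 495 tags fed and 128 fasting and ranks of 84.3 and 87.4. Its ratio was 0.892 times the tissue median (0.729 to 1.09). The strongest region beyond 3 kb, at -4099 bp, was listed in all 16 libraries and lies 54 bp from the start of Chkb, a neighbouring gene, outside the window that gave the ranks.

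Cpt2, whose product completes the shuttle inside mitochondria, lies on the minus strand of chromosome 4 (107903981 to 107923610). The region at its start was open in all libraries, from 19.3 tags per background in fasting heart to 87.1 in fasting kidney. Fasting ratios relative to the tissue median lay between 0.937 in heart and 1.14 in kidney, and the intervals of all 8 include 1. Beyond the start the locus differed by tissue. A merged region 24111 bp downstream, past the end of the gene, ranked 99.3 (fed) and 99.2 (fasting) in liver. It ranked between 91.1 and 94.2 in the fat depots, and 64.4 and 68.4 in kidney. It was listed in muscle at 5.97 and 4.81 and in no spleen, heart or lung library. The merge joins peaks at different positions, with summits at chr4:107899324 to 107899498 in liver and kidney (counted from 0). In the fat depots they lay at 107900340 to 107900437, and in muscle at 107900597 fed and 107900100 fasting. The peaks of fasting liver and fasting brown adipose do not overlap. An intronic region at 1482 bp was listed in 13 libraries, with 151 tags in fed and 258 in fasting kidney (1.77 times the median, 1.45 to 2.18) and 123 and 105 in white adipose (1.89 times the median, 1.44 to 2.47). The only single-tissue region, in a coding exon, was in brown adipose with a rank of at most 17.8.

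Fgf21, on the minus strand of chromosome 7 (45613886 to 45615490), is a gene of 1605 bp next to Fut1 and had the largest shifts in rank and the largest fasting ratio of a promoter peak among the 7 members. Its start region, 60 bp into the gene, was listed in 11 libraries. In fed liver it held 14 tags (5 per background, 2.73 to 8.39) and a rank of 34.1, and in fasting liver 85 tags (30.1 per background, 24.1 to 37.3) and a rank of 89.2. The ratio of 6.03 was 3.38 times the liver median (1.91 to 6.44), and 1 of 16113 liver promoters had a larger one. With the strongest peak of each state, as measured for those promoters, the Fgf21 ratio was 4.96, or 2.78 times the median. On that measure 5 of the 16113 promoters had a larger one. No other library exceeded 9.79 tags per background at this start, the value of fed brown adipose.

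In brown adipose the Fgf21 start went the other way, from 125 tags fed to 26 fasting, 0.717 times the tissue median with an interval that includes 1 (0.451 to 1.10). In white adipose it went from 41 to 33 tags, 1.78 times the median (1.09 to 2.89), and from a rank of 1.71 to 60.6, beside the epididymis values given above. Heart held 18 tags in each state, and lung, kidney and fasting muscle had no peak there. Spleen held 13 tags in each state within the merged region, but at peaks that do not overlap. Their summits were at chr7:45615129 fed and chr7:45615885 fasting (counted from 0). A region at -1027 bp, between Fgf21 and Fut1, was higher in fasting liver (17 and 57 tags, 1.87 times the median, 1.07 to 3.42), muscle (43 and 120 tags, 1.71 times, 1.20 to 2.49) and kidney (24 and 52 tags, 2.25 times, 1.36 to 3.82). In kidney, 7 of 15990 promoters had a larger ratio than this region, while the strongest Fgf21 peak there, at another region, was at 1.08 times the median.

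The peak that set the rank of Fgf21 was therefore not the same one in all libraries. It was the start in fasting liver, fed brown adipose, fasting white adipose and heart, and the region at -1027 bp in fed liver, muscle and fasting brown adipose. In lung, kidney and fed white adipose it was the region at -2048 bp, inside Fut1, and in spleen the region at 1258 bp in the coding exon. The shifts in rank of Fgf21 therefore compare different regions in liver, brown adipose and white adipose. Within 1 region, the start ranked 34.1 fed and 89.2 fasting in liver, 1.71 and 60.6 in white adipose and 64.02 and 49.1 in brown adipose. The region at -1027 bp ranked 64.2 and 79.97 in liver and 44.6 and 50.4 in brown adipose. The strongest Fgf21 region beyond 3 kb, at 4620 bp from the 5′ end and past the end of the gene, ranked 86.9 and 88.3 in kidney and 67.7 and 65.4 in liver. No region of the locus was held by all 16 libraries and none was a single-tissue region, while 12 of its 21 regions were listed in 1 library only.

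**Figure D4:**
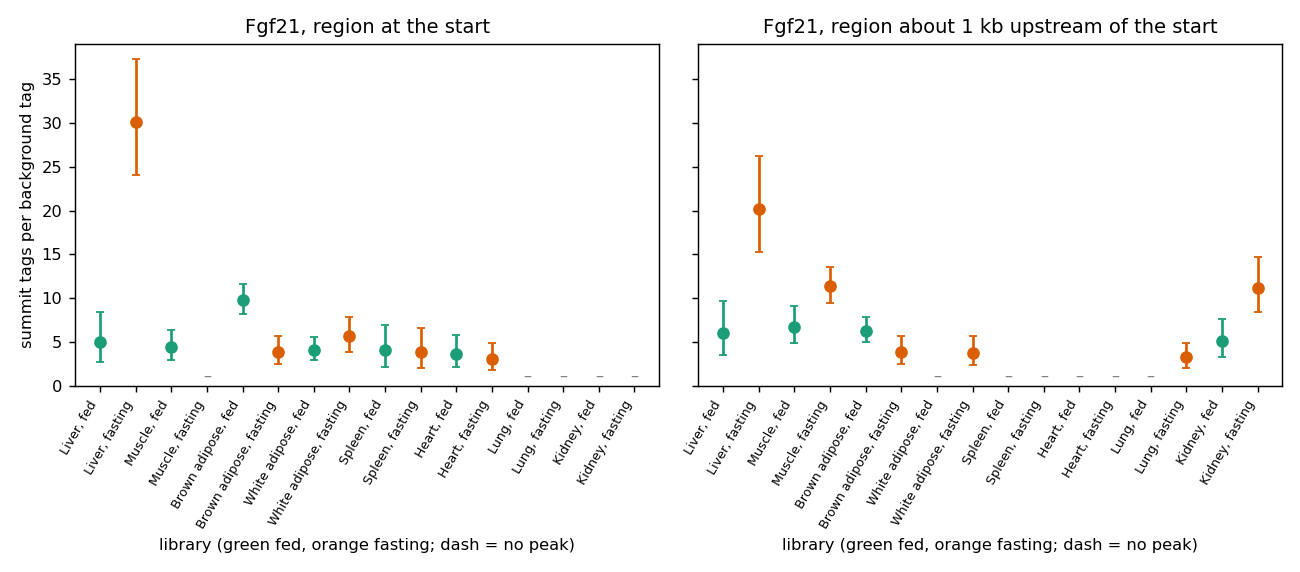
Tags at the summit per background tag (y axis, with exact 95% counting limits) at the Fgf21 start (left) and at the region about 1 kb upstream (right), in the 16 libraries (x axis, fed green, fasting orange, dash for no peak). The start reaches 30.1 in fasting liver against 5 in fed liver and at most 9.79 elsewhere.

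**Figure D5:**
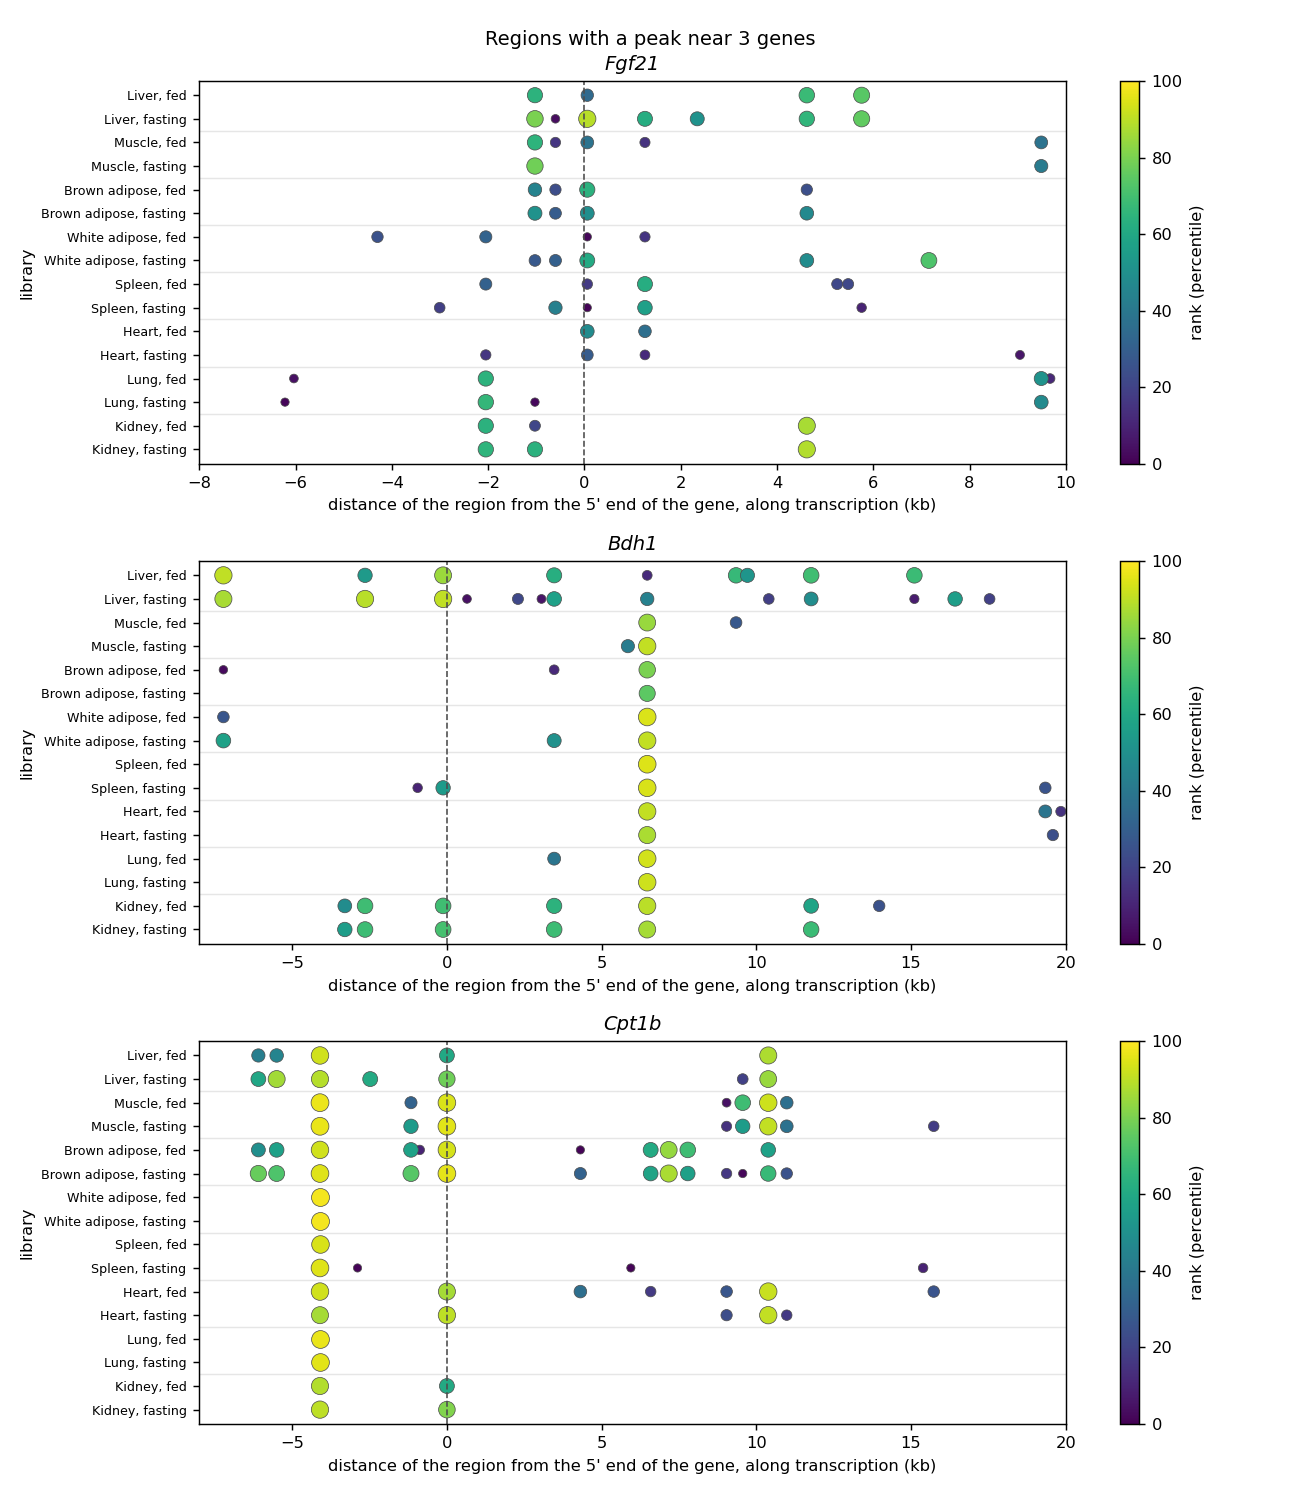
Regions with a peak near Fgf21, Bdh1 and Cpt1b (x axis, distance in kb from the 5′ end of the gene, along transcription) in the 16 libraries (y axis), with colour and size giving the rank. Bdh1 has its start peak in liver, kidney and fasting spleen and its internal peak, at 6474 bp, in every library, and the Cpt1b start has no listed peak in white adipose, spleen and lung.

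In all, the 7 genes with 10 kb on either side held 334 regions, from 19 for Cpt1b to 99 for Oxct1. Of these, 28 (8.38%) were held by both libraries of 1 tissue and by no other, against 9.94% of the 904157 regions of the genome. All 16 libraries shared 14 (4.19%, against 2.78%), and 162 (48.5%, against 52.5%) were in 1 library only. The shared regions had a median GC content of 61.0% and 19 CpG in the 300 bases around the summit, against 47.7% and 3 for the regions of 1 tissue and 47.7% and 3 for those of 1 library. Repeats marked in lower case in the reference covered over 50% of these bases in 1 of the 14 shared, 4 of the 28 single-tissue and 22 of the 162 single-library regions.

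The promoters differed in base content as well. The upstream Bdh1 promoter had 48.3% GC and 7 CpG in 300 bases and Fgf21 58.0% and 9, against 63.7% and 17 at the internal Bdh1 start, 62.3% and 22 at Cpt1a, 57.3% and 17 at Cpt2 and 55.3% and 11 at Oxct1. The median over 20150 promoters of protein-coding genes was 57.0% and 14 CpG. The letters were searched on both strands. Fgf21 held TGATGCAA, a letter sequence like those bound by ATF4 with C/EBP factors, which 0.893% of the promoters hold, and Cpt1a held CCAAT, as 37.8% do. The Fgf21 match lies outside the peaks that the fed and fasting liver lists name at its start. A direct repeat of AGGTCA with 1 base between (at most 1 letter different, 0.476% of promoters), TNAAGGTCA (1.04%) and TGACGTCA (2.31%) were found in none of the 6 promoters. AGGTCA is part of both the repeat and TNAAGGTCA, so their matches can overlap. A match is a string of letters and was not tested for binding.

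Other genes of the same pathways were taken from 4 lists of 33 genes. A promoter peak was present in all 16 libraries for 30 of them (61.4% of all genes), and 20 followed the tissue at an exact adjusted p under 0.05 (51.2% of all genes). The unadjusted sign-flip test was passed by 1, Acadl, a long-chain acyl-CoA dehydrogenase gene (mean difference 0.553 points, exact p = 0.0234, adjusted 0.786). Of all genes, 1.83% passed it with higher and 3.65% with lower ranks in fasting. The 13 genes of fatty acid activation and beta-oxidation had a median rank of 98.7, and none shifted by 10 points in a tissue. Liver had 2 shifts upward, against 10.3% of all genes. Mlycd, whose product breaks down the CPT1 inhibitor malonyl-CoA, went from 76.5 to 91.1. Hcar2, a receptor for beta-hydroxybutyrate, went from 56.3 to 69.1. Hcar2 went from 26.4 to no peak in kidney. Creb3l3, which encodes a liver-enriched transcription factor, ranked 88.5 and 94.3 in liver, 24.8 and 5.98 in muscle and had a peak of rank 66.4 in fasting spleen and 25.4 in fasting heart against none in the fed libraries. Ppargc1a went from 91.3 to 76.4 in white adipose, Slc16a7 from 72.1 to 54.2 in muscle, Cpt1c from 78.9 to 68.2 in heart and Pdk4 from 58.8 to 68.9 in spleen. Of all genes, 10.3% moved down by at least 10 points in white adipose, 7.19% in muscle, 10.7% in heart and 4.53% in kidney. Upward the shares were 8.61% in spleen and 8.92% in heart. Klb, which encodes beta-Klotho, had a promoter peak in 6 libraries, those of liver (89.5 and 89.4), brown adipose (83.8 and 85.4) and white adipose (83.9 and 87.4).

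The genes whose 16 promoter ranks were most like a member's are given as a description over libraries that share mice and list length. They were Cnot6 (Pearson r = 0.935) for Acat1, Fank1 (0.903) and Evl (0.895) for Bdh1, and Abcc5 (0.967) and Pip4k2a (0.964) for Oxct1. For the carnitine genes they were Dpp7 (0.886) and Hmg20b (0.822) for Cpt1a, Zic4 (0.882) and Zic1 (0.861) for Cpt1b, and Sipa1l2 (0.882) and Tdrd7 (0.880) for Cpt2. Fgf21 was most like Ccdc171 (0.821) and Hsf4 (0.805).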

How the data were processed

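ATAC-seq peak lists of 16 libraries were analysed, 1 for each of 8 tissues and 2 states, and no reads or signal tracks were analysed here. Per the labels and the study's methods, the authors aligned reads to GRCm38 with Bowtie2, removed unmapped and duplicate reads and ran MACS2. The removal of mitochondrial reads, a Tn5 step, a loose p threshold of 0.01 and a limit of about 300000 rows are known here only from the names of the deposited lists, which do not say how read ends were handled. Fold enrichment, as deposited, is the authors' ratio of summit tags plus 1 over expected tags plus 1. Significance was deposited as -log10 of p and of q, each from the authors' MACS2 test in that library, and the deposited score column was not used. None of these is scaled between libraries, and a gene without a listed peak is not shown to be closed. Ranks were percentiles of -log10 p within a list. Tags were solved from fold and p (tolerance 0.01 in -log10 p), and the background is the commonest expected value of a library. The depth in reads is not given in the sources used here, so precision was taken from these tags.

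Summits within 3 kb of an annotated start (window ends included) were used for promoters, and overlapping peaks of all lists were merged into regions for gene bodies extended by 10 kb. Exact permutation tests were run for the 18883 protein-coding genes with a promoter peak in at least 2 libraries and adjusted by Benjamini-Hochberg over all of them. The text names the 7 members, genes of the 4 pathway lists that shifted by 10 points or passed the unadjusted sign-flip test, and Klb. Other pathway genes that only followed the tissue are not named. Also named are the 2 genes most correlated with each member, and in each locus the strongest region beyond 3 kb and the strongest one listed in both libraries of 1 tissue and in no other. Other regions of the loci are named after their values were seen. Of the genes most like a member in promoter rank, 1 is not reported here. The members and lists were chosen with earlier results of these data known. Alternatives were peaks with q under 0.01 or 1e-06, windows of 1 kb and 500 bp, starts of coding transcripts, ranks by fold enrichment, among promoters or over distinct regions, leaving out each tissue, no flank, and a stricter overlap. The 500 bp window and the division by the median ratio of a tissue were added after the data were seen. Permutation tests and the tag solution were tested on simulated data. Software was Python 3.11.15 with numpy 2.4.6, scipy 1.17.1, pandas 2.3.3 and matplotlib 3.10.9.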

Additional observations from a re-analysis of the deposited data

Results flagged for a closer look

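The promoter rank of Fgf21 moved in opposite directions with fasting in different tissues. It was 24.96 points higher in fasting liver, 13.3 higher in muscle and 29.1 higher in white adipose, while fasting minus fed was -13.6 in brown adipose and -19.0 in heart. With 1 library per tissue and state, the difference between tissues was not tested. In liver, brown adipose and white adipose the fed and fasting peaks compared are different regions. At the start alone, fasting minus fed was 55.1 points in liver, -14.9 in brown adipose and 58.9 in white adipose, and at the region at -1027 bp it was 15.8 in liver and 5.83 in brown adipose. In heart the start held 18 tags in each state.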

How the results depend on the processing

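Of the 7 members, 4 followed the tissue under most alternatives, with 3 when ranks used fold enrichment (Acat1 and Cpt2 lost, Bdh1 gained), 5 with the 500 bp window or over distinct regions (Bdh1 gained), and 3 to 5 when 1 tissue was left out. The 500 bp window, added after the data were seen, gave 6 shifts downward in place of 3, and ranks among promoters gave 3 shifts upward in place of 5, so counts of shifts depend on the window and on what is ranked. The mean difference of Cpt2 was -0.00915 points and was 0.0678 over distinct regions, 0.00969 among promoters, 0.0780 without liver, 0.0245 without heart and 0.00888 without lung. No member passed the adjusted sign-flip test under any alternative. Gene-body regions numbered 248 to 355, with 25 to 30 listed in both libraries of 1 tissue and in no other. TGATGCAA was found in 0 of 5 members' windows centred on the strongest promoter summit, against 1 of 5 promoters, since these windows lie elsewhere. The sign-flip and pairing tests pair the libraries by tissue. No paired analysis was possible by replicate number because each group has 1 library. The lists name peaks only, tags are few in liver (background 2.8), and lists cut at a fixed length hold different shares of weak peaks.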
